A study of Homo sapiens with 12 samples.

Results

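Small nucleolar RNA host genes carry small nucleolar RNAs (snoRNAs) in their introns, and 10 noncoding ones were followed here in SH-SY5Y cells after MATR3 knockdown. They were SNHG1, SNHG3, SNHG5, SNHG6, SNHG7, SNHG8, SNHG12, SNHG15, GAS5 and ZFAS1. A transcript cluster or probe set was taken where its array annotation includes one of these symbols, also beside others. This gave 10 of 67528 transcript clusters, 1 per gene, and 368 of 913055 exon-level probe sets. SNHG4 was left out because it shares its cluster with MATR3, the targeted gene.

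The 2 groups were SH-SY5Y cells electroporated with MATR3 siRNA and SH-SY5Y cells electroporated with a negative control siRNA, 3 samples each, so both groups went through the same pulse of 1100 V for 50 ms. SH-SY5Y is an established human neuroblastoma cell line of sympathoadrenal type, and MATR3 encodes Matrin-3, a nuclear protein that binds RNA. Cells grew in medium with 15% serum, and total RNA was taken 48 h after the pulse and measured on Affymetrix Human Transcriptome Array 2.0 arrays from 100 ng of input. The series title names splicing and expression under Matrin-3 knockdown as its object, and the labels do not say whether replicates were separate cultures, so each p-value covers the scatter of these 6 arrays and that scatter may be technical.

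A host gene is transcribed by RNA polymerase II, spliced, and its excised introns are trimmed to mature snoRNAs. Box C/D snoRNAs guide 2'-O-methylation and box H/ACA snoRNAs guide pseudouridylation of ribosomal and other RNAs. The spliced exons of many such hosts code for no protein, begin with a run of pyrimidines like the messenger RNAs of ribosomal proteins, and are known targets of nonsense-mediated decay in the cytoplasm. Signal over an exon junction therefore reports the spliced host, whereas signal over a whole locus can include intron-derived small RNA.

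The regions around the annotated transcription starts are shown because start and splicing set the 2 products of each locus, host RNA and snoRNA. Windows from the RefSeq promoter table on GRCh38.p14 are given for 8 of the 10 hosts. SNHG6 and SNHG15 have none here, which does not show that the table lacks them. Each line gives 60 bases, 40 before the start and 20 from it, 5′ to 3′ on the gene's strand, and capitals mark the motif TATAA or its reverse complement TTATA.
SNHG1: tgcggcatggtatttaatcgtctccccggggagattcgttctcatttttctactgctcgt
SNHG5: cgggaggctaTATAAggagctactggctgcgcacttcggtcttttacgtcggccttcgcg
GAS5: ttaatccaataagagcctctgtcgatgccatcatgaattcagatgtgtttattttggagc
ZFAS1: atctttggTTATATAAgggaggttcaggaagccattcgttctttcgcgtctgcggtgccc
SNHG3: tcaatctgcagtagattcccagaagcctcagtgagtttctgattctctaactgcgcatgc
SNHG7: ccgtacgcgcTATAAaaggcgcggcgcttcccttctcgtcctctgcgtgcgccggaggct
SNHG8: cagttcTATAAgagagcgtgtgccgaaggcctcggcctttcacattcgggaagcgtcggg
SNHG12: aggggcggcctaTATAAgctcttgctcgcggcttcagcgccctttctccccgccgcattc

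These windows lie at chr11:62855866-62855925 on the minus strand for SNHG1, chr6:85678714-85678773 on the minus strand for SNHG5, chr1:173869026-173869085 on the minus strand for GAS5 and chr20:49278602-49278661 on the plus strand for ZFAS1. Those of the others lie at chr1:28505903-28505962 on the plus strand for SNHG3, chr9:136728165-136728224 on the minus strand for SNHG7, chr4:118278722-118278781 on the plus strand for SNHG8 and chr1:28581854-28581913 on the minus strand for SNHG12. TATAA, searched on both strands, was present in 5 of the 8 windows and in 6.49% of the 35116 windows of the same length over all genes. The 8 leave out SNHG6 and SNHG15, and the windows over all genes may not be limited in the same way. The difference between these shares was not tested. In ZFAS1 the matches on the 2 strands overlap. The longest unbroken run of C and T was 12 bases in SNHG12, beginning 1 base before the annotated start. In SNHG7 it was 11 bases, beginning 14 bases before the annotated start and ending before it. Runs at least as long were found in 6.41% and 8.92% of all windows. In GAS5 the longest run was 5 bases. Whether the annotated starts are those used in these cells was not tested. A short run here therefore does not show that the host RNA lacks a longer one. A match is a description of these letters and not a site shown to be used.

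On the arrays as a whole, the targeted cluster was lower in every MATR3 siRNA sample, with log2 signals of 11.21, 10.53 and 10.52, against 12.25, 11.75 and 11.68 after control siRNA, which leaves 45.4% of the control signal (mean pair difference -1.14, SD 0.09, n = 3 pairs). The arrays of replicate 1, in both groups, stood apart from the other 4, with r = 0.994 between them over the clusters tested and 0.977 to 0.984 with the others. The sympathoadrenal list had 10 of 11 measured markers above the brightest of 23 background probe sets (mean log2 signal 6.93), and the mesenchymal, Schwann and fibroblast list had 3 of 10. The summed log2 signal of the mesenchymal list spanned 64.48 to 67.63 with MATR3 siRNA and 62.78 to 67.01 with control siRNA, and its part in any result here was not tested. Under a limma model with a block for the array set, described with the hosts, 1 of its 8 tested markers was called higher, LUM (0.67 ± 0.18). Of the 10 tested sympathoadrenal markers 7 lay below 0 (median -0.16). DBH (-0.84 ± 0.21) and DDC (-0.63 ± 0.11) were called lower, and ISL1 (0.54 ± 0.19) and STMN2 (0.37 ± 0.10) higher. The model called 3.4% of all tested clusters with a symbol. With 1 sample left out, DBH, ISL1 and LUM each passed in 1 of 6 fits, and DDC and STMN2 in 0 of 6. Only the fit without MATR3 siRNA replicate 2 called any cluster. The part of the sympathoadrenal markers in the results was not tested either.

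At gene level the 10 hosts lay close to their control signal after MATR3 knockdown. The mean pair difference was between -0.05 and 0.18 on the log2 scale, above 0 in 9 hosts and below 0 in SNHG12, with a median of 0.12 against 0.04 over all clusters tested. None of the hosts passed the test. In bulk RNA, a change in the number of cells and one in RNA per cell cannot be told apart. In limma with no block, 0 of 33782 clusters passed at an adjusted p of 0.05 (0%), and 316 had an unadjusted p under 0.05, none of them a host, with adjusted p = 1 for each host. The targeted MATR3 cluster, at 45.4% of its control signal, did not pass in this fit either (unadjusted p = 0.00406 in limma). A host that does not pass there is therefore not shown to be unchanged. Under the array set block over clusters with a symbol, the targeted cluster passed (adjusted p = 0.0103 in limma). The groups overlapped in all 10 hosts, and over all clusters only 2.33% were higher and 1.07% lower without overlap. For 10 clusters, none without overlap is near these shares and sets the hosts apart in no way. In each host, replicate 1 also stood above the others in both groups by more than the difference, which makes overlap likely.

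**Figure D1:**
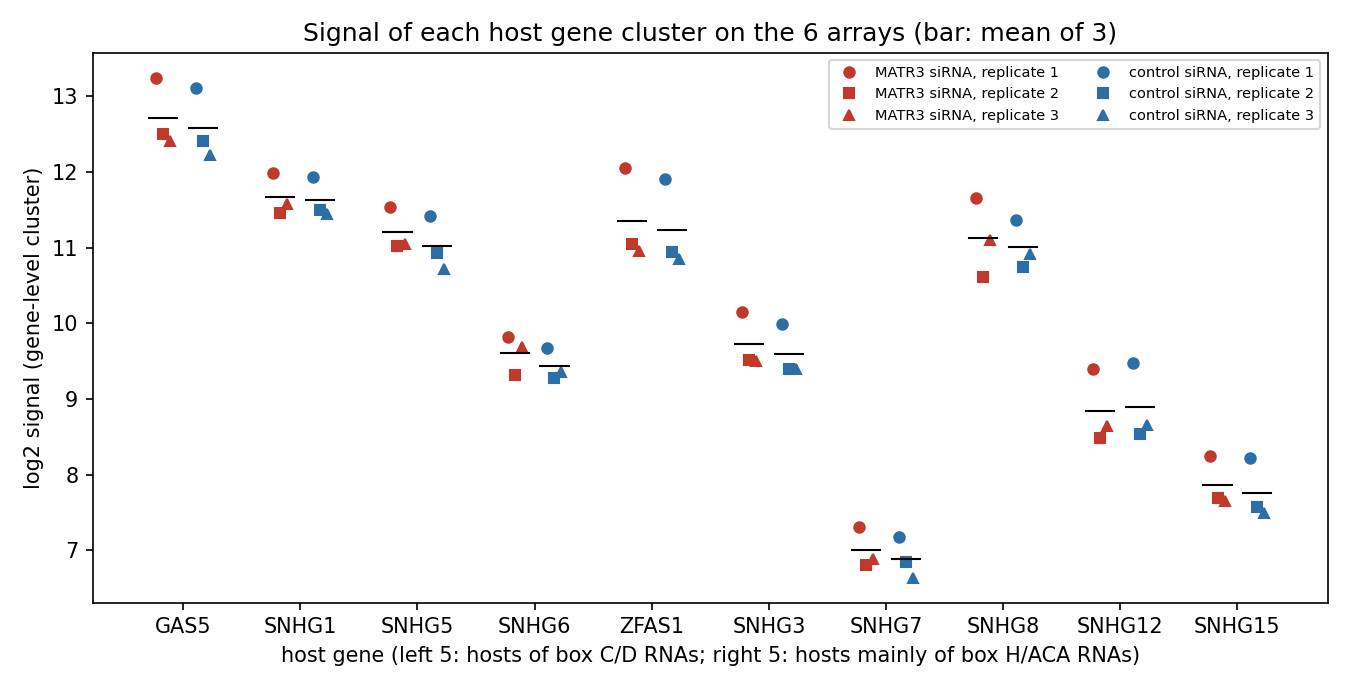
Log2 signal of the gene-level cluster of each host on the 6 arrays, with MATR3 siRNA (red) left of control siRNA (blue) and 1 symbol per replicate number. The replicate 1 arrays are the highest in both groups for each host, and the 2 groups overlap throughout.

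The spread between arrays was larger than the difference between the siRNAs in each of the 10 hosts. With MATR3 siRNA, replicate 1 exceeded the mean of replicates 2 and 3 by 0.32 (SNHG6) to 1.05 (ZFAS1), and with control siRNA by 0.35 (SNHG6) to 1.01 (ZFAS1). The median of this gap with MATR3 siRNA was 0.61 over the hosts and 0.54 over all clusters tested. With control siRNA it was 0.60 over the hosts and 0.62 over all clusters. The hosts shared this gap with the arrays at large. Differences were taken within a cluster only, since signals of different probes are not on one scale.

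Of the hosts of box C/D snoRNAs, GAS5 is named for its accumulation in growth-arrested cells and its noncoding RNA is known to bind the glucocorticoid receptor. Its cluster, annotated with GAS5 and 8 box C/D snoRNAs, had signals (log2) of 13.24, 12.50 and 12.41 with MATR3 siRNA (12.72 ± 0.46 SD, n = 3), against 13.11, 12.41 and 12.22 with control siRNA (12.58 ± 0.47 SD, n = 3). Each MATR3 siRNA sample was higher than the control sample of its number, by 0.14 ± 0.05 in the mean (SD, n = 3 pairs), which is 110% of control. The exact two-sided permutation test gave p = 0.6, where 0.1 is the smallest that 3 against 3 allow, and p between 0.4 and 0.8 for the other 9 hosts.

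SNHG1, a host of 8 box C/D snoRNAs including SNORD22, had 11.98, 11.45 and 11.57 with MATR3 siRNA, against 11.93, 11.50 and 11.44 with control siRNA. Pair 2 lay below 0 and the other pairs above, with a mean of 0.04 ± 0.09. SNHG5, the host of the SNORD50 pair, had 11.54, 11.02 and 11.05 with MATR3 siRNA, against 11.42, 10.93 and 10.72 with control siRNA. All 3 pairs were above 0, and its mean of 0.18 ± 0.13, or 113% of control, was the highest of the 10.

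SNHG6, the host of SNORD87, had 9.82, 9.31 and 9.69 with MATR3 siRNA, against 9.67, 9.28 and 9.36 with control siRNA (mean pair difference 0.17 ± 0.15). ZFAS1, antisense to the 5′ end of ZNFX1 and host of the SNORD12 family, had 12.05, 11.05 and 10.95 with MATR3 siRNA, against 11.91, 10.94 and 10.85 with control siRNA. The 3 pair differences of ZFAS1 were 0.14, 0.11 and 0.10, the smallest spread of the 10 (SD 0.02), beside group SDs of 0.61 and 0.59. A steady pair difference therefore stood on arrays that differed far more from each other.

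Of the hosts of box H/ACA snoRNAs, SNHG3 carries SNORA73, a snoRNA of ribosomal RNA processing. Its cluster had 10.15, 9.51 and 9.50 with MATR3 siRNA, against 9.99, 9.40 and 9.39 with control siRNA, all 3 pairs above 0 (mean 0.13 ± 0.03). The annotation gives this cluster to RCC1 as well, the nucleotide exchange factor of Ran, so the signal cannot be assigned to SNHG3 alone. SNHG15, the host of SNORA9, had 8.24, 7.69 and 7.65 with MATR3 siRNA, against 8.22, 7.57 and 7.49 with control siRNA, also with all pairs above 0 (mean 0.10 ± 0.07).

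SNHG7, the host of SNORA17A and SNORA17B, had 7.31, 6.81 and 6.88 with MATR3 siRNA, against 7.18, 6.84 and 6.64 with control siRNA (mean pair difference 0.11 ± 0.14). Its control mean of 6.89 lies under the brightest background probe set, at 6.93, so the size of its difference is not exact. SNHG8, the host of SNORA24, with no other symbol on its cluster, had 11.66, 10.61 and 11.10 with MATR3 siRNA, against 11.36, 10.74 and 10.91 with control siRNA. Its pairs disagreed in sign and had the widest spread of the 10 (0.12 ± 0.22).

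SNHG12, the host of SNORA16A, SNORA44 and SNORA61, differed from the others in sign. It had 9.39, 8.48 and 8.64 with MATR3 siRNA, against 9.48, 8.54 and 8.65 with control siRNA. All 3 pairs were below 0, with a mean of -0.05 ± 0.04, or 96.4% of control.

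**Figure D2:**
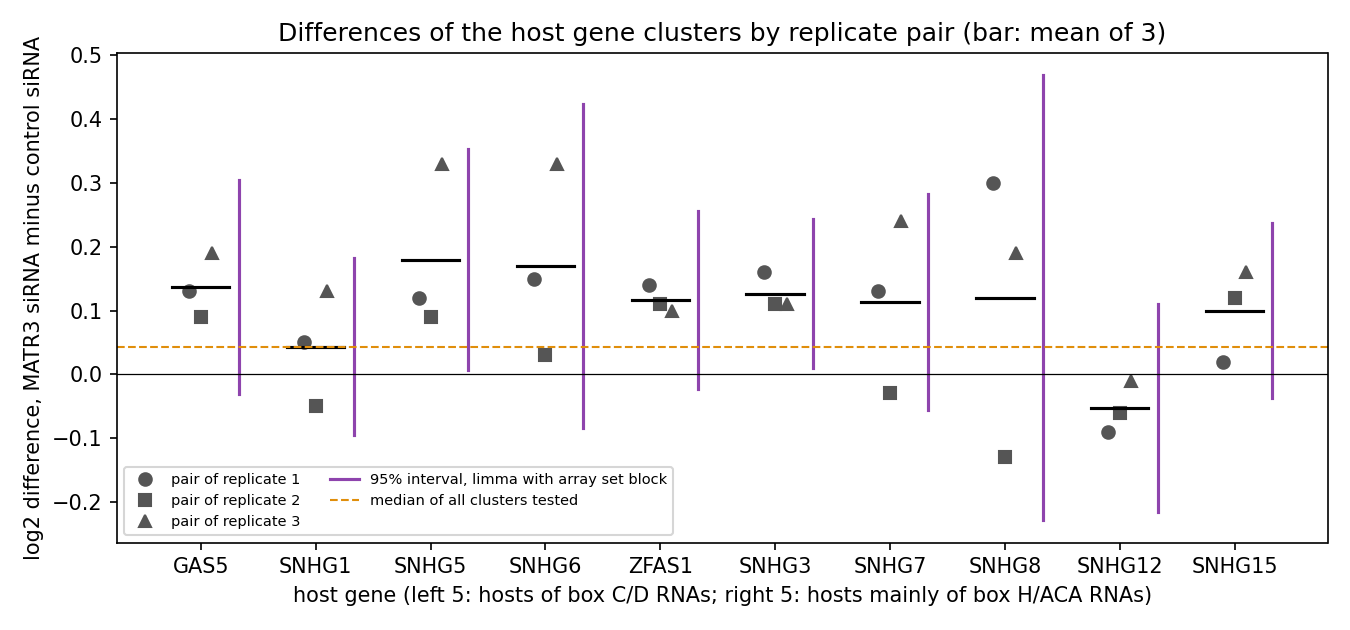
Log2 difference of MATR3 siRNA minus control siRNA for each host gene cluster, with 1 symbol per replicate pair, a bar at the mean of 3 and the 95% interval of the array set model. The means run from -0.05 in SNHG12 to 0.18 in SNHG5, and the dashed line is the median of all clusters tested, 0.04.

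A block for the array set, replicate 1 against replicates 2 and 3, was used because those arrays stood apart, a choice made in an earlier analysis with the data in view. Over the 16259 tested clusters with at least 1 gene symbol, this limma model called 552 clusters (3.4%), of which 2.01% of those tested were higher and 1.39% lower. It called 0 of the 10 hosts. Over all 33782 clusters the same model called 0.00296% and limma with array weights 9.45% (7.27% higher), and neither called a host. The lowest adjusted p was 0.183 for SNHG3 and 0.199 for SNHG5, which were also the 2 hosts with an unadjusted p under 0.05, as were 23.8% of all these clusters. With the replicate number as a block, 0.0554% of the same clusters and none of the hosts passed.

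The 95% intervals of this model bound the differences. They ran from 0.01 to 0.24 for SNHG3, from 0.01 to 0.35 for SNHG5, from -0.03 to 0.30 for GAS5, from -0.02 to 0.26 for ZFAS1 and from -0.22 to 0.11 for SNHG12. The widest, for SNHG8, ran from -0.23 to 0.47, so none of the 10 intervals reaches a 2-fold change in either direction. With no block the interval of ZFAS1 ran from -0.80 to 1.03.

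Of the 10 hosts, 6 had all 3 pairs above 0 and 1 had all 3 below, against 22.5% and 13.5% of all clusters tested. In pairs 2 and 3 alone the host median was 0.11 and that of all clusters 0.07. After median centring of each array the host median was 0.04, and the difference of SNHG1 changed sign, to -0.03. Without a block the host median became -0.10 without MATR3 siRNA replicate 1 and -0.02 without control siRNA replicate 3. Leaving out 1 sample there also shifts the balance of the array sets between the groups. Those fits therefore cannot tell a direction that rests on single arrays from that shift. With the array set as a block the host median ran from 0.09 to 0.14 when 1 sample was left out.

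At exon level, the array holds exon probe sets (identifiers starting PSR) and junction probe sets (starting JUC), which span a splice junction. Of the 368 probe sets of the hosts, 248 exon and 120 junction, 307 had a mean at or above the median of all and were tested. In limma 0 of 456623 probe sets passed with no block (0%), with the replicate block (0%) and under the array set block (0%), and none of the 307 did. At an unadjusted p under 0.05 there were 6 of the 307 with no block, 22 with the replicate block and 46 (15.0%) under the array set block, where all probe sets gave 3.68%, 10.1% and 11.9%. The groups stood clear of each other in 32 of the 307 with MATR3 siRNA higher (10.4%) and in 2 with it lower (0.651%), against 5.59% and 2.85% of all probe sets. Probe sets of 1 host share its RNA and often its bases, and are not replicates. The 53 tested probe sets of SNHG3 may include some of RCC1, which shares its cluster.

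The junction probe sets of the hosts lay higher than those of the array. Of 92 tested, 59 (64.1%) had a mean pair difference above 0 with a median of 0.14, against 48.4% and -0.02 over all 176533 junction probe sets. In 13 of the 92 the groups stood clear of each other, all higher after MATR3 siRNA (14.1%), against 5.98% higher and 3.67% lower over all junction probe sets. For the 215 exon probe sets of the hosts the median was 0.07, against 0.02 over all exon probe sets. In pairs 2 and 3 alone, 56 of the 92 host junctions were above 0 with a median of 0.16, and the median of all junctions was -0.04.

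Of the 13 junctions clear of each other, 4 were of ZFAS1, 3 of GAS5, 2 of SNHG3, 1 each of SNHG1, SNHG6, SNHG7 and SNHG15, and 0 of SNHG5, SNHG8 and SNHG12. All 7 tested junction probe sets of ZFAS1 were above 0 (0.11 to 1.13, median 0.49) and all 6 of SNHG6 (0.21 to 0.76, median 0.61), while their exon probe sets had medians of 0.02 in both. In pairs 2 and 3 alone the junction medians were 0.73 for ZFAS1 and 0.79 for SNHG6. The median was 0.45 over 8 junctions of SNHG5, 0.37 over 19 of GAS5 and 0.29 over 14 of SNHG1. In the H/ACA hosts it was 0.00 in SNHG3 (19 junctions) and in SNHG8 (3), 0.09 in SNHG7 (6), 0.16 in SNHG15 (4) and -0.14 in SNHG12 (6). The SNHG3 cluster is also annotated with RCC1, so junctions counted for SNHG3 may belong to RCC1. The difference between the hosts was not tested.

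**Figure D3:**
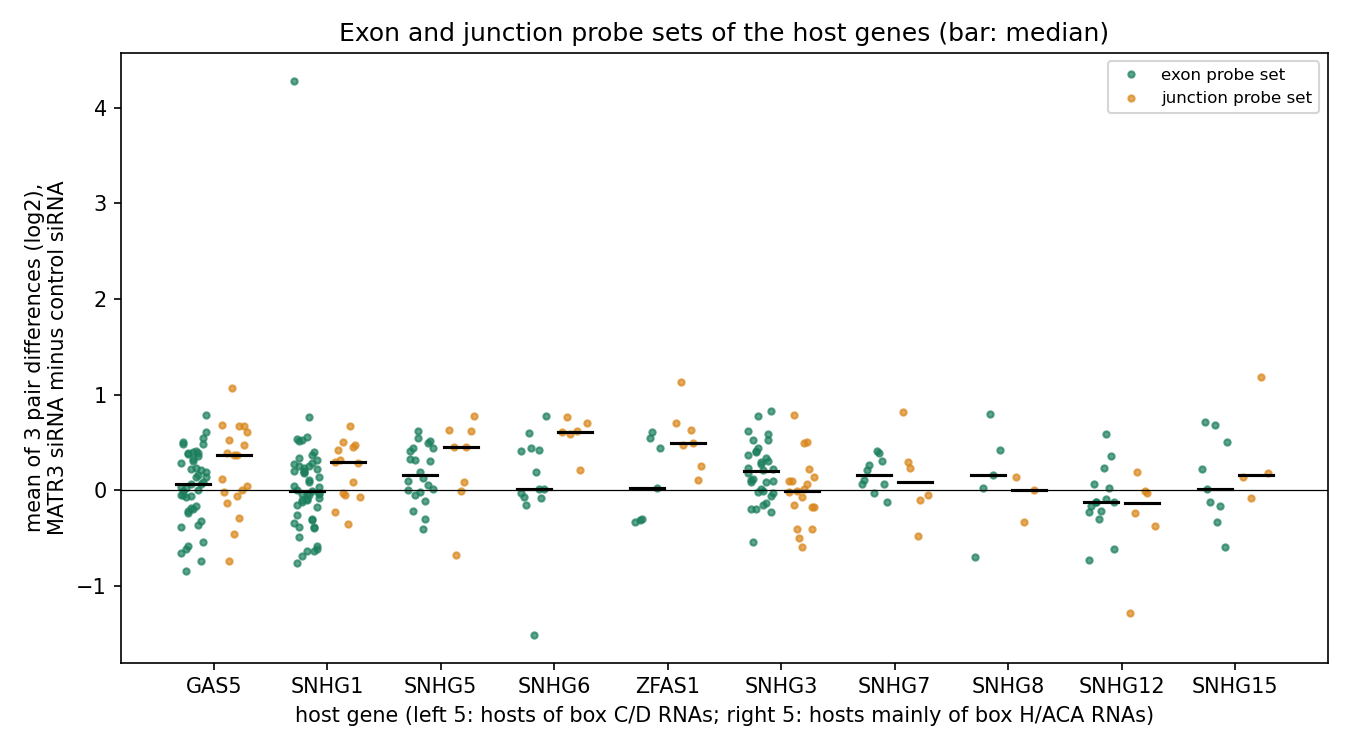
Mean of 3 pair differences (log2, MATR3 siRNA minus control siRNA) of each tested probe set of the hosts, exon probe sets in green and junction probe sets in orange, with bars at the medians. All junction probe sets of SNHG6 and ZFAS1 lie above 0, and 1 exon probe set of SNHG1 lies at 4.28.

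Of the 307 probe sets, 6 (1.95%) had a mean past 1 on the log2 scale, or 2-fold, against 4.14% of all probe sets tested. The largest was the SNHG1 exon probe set PSR11022097.hg.1, with 14.07, 10.78 and 13.28 with MATR3 siRNA, against 13.55, 6.13 and 5.60 with control siRNA. Both replicate 1 arrays were high, and of the other 4 arrays only the MATR3 siRNA ones were, so the mean of 4.28 has an SD of 3.59 and the groups overlap. Control replicates 2 and 3 lie under the brightest background probe set at 6.93, so this size is not exact either. A mean at least as high was found in 24 of all probe sets tested (0.00526%). Its adjusted p in limma was 1 with no block, 0.491 with the replicate block and 0.383 under the array set block.

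The lowest mean was that of the SNHG6 exon probe set PSR08016584.hg.1, with 10.26, 8.24 and 7.92 with MATR3 siRNA, against 10.11, 9.79 and 11.06 with control siRNA (mean pair difference -1.51 ± 1.65). In SNHG12 the junction probe set JUC01020090.hg.1 had 7.72, 6.08 and 5.23 with MATR3 siRNA, against 8.21, 6.92 and 7.75 with control siRNA (-1.28 ± 1.09). Its mean with MATR3 siRNA, 6.34, lies under the brightest background probe set at 6.93, so the size is not exact. Replicate 1 was the highest array of each group for the junction, and the groups overlapped in both probe sets.

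In 3 junction probe sets past 2-fold the groups did not overlap. JUC07010293.hg.1 of SNHG15 had 7.70, 7.53 and 7.69 with MATR3 siRNA, against 6.57, 6.00 and 6.81 with control siRNA (1.18 ± 0.33). Its 3 control values lie under the brightest background probe set, also 6.93 at exon level, so the size is not exact. In limma with no block its adjusted p was 1, at the lowest unadjusted p of the 307 (0.00633). JUC01028606.hg.1 of GAS5 had 11.66, 11.61 and 11.37 with MATR3 siRNA, against 11.22, 10.57 and 9.64 with control siRNA (1.07 ± 0.65). JUC20003091.hg.1 of ZFAS1 had 10.04, 11.18 and 10.95 with MATR3 siRNA, against 9.97, 9.65 and 9.15 with control siRNA (1.13 ± 0.93), with pair 1 near 0.

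**Figure D4:**
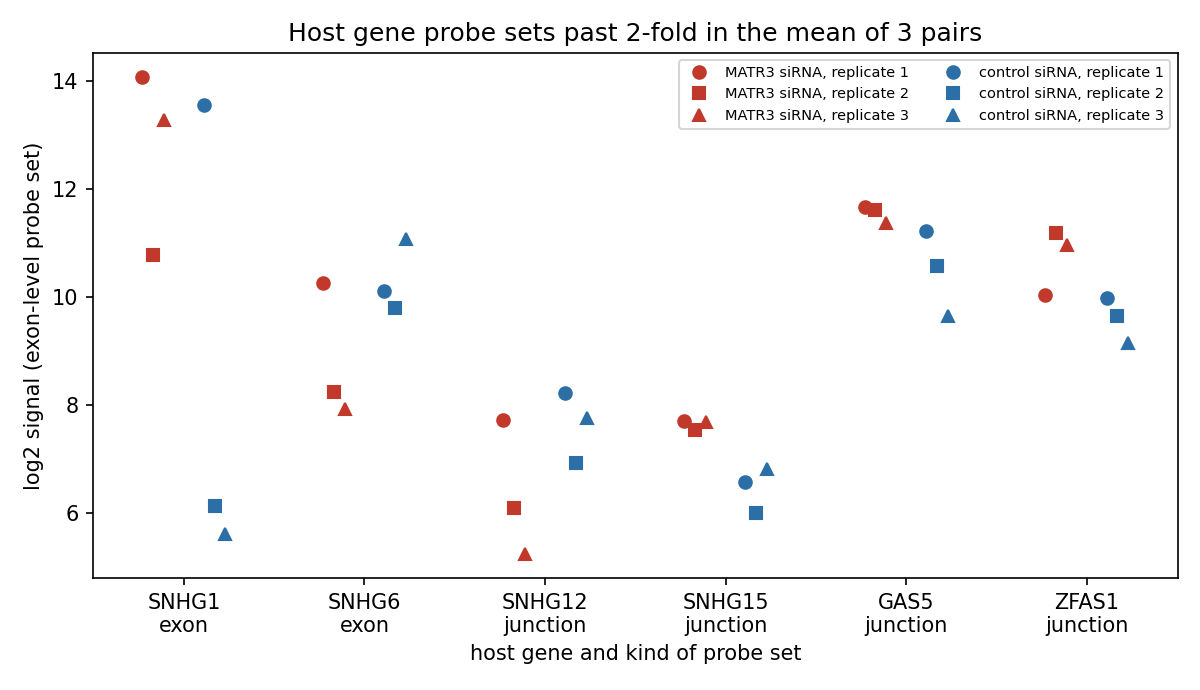
Log2 signal on the 6 arrays of the 6 host gene probe sets whose mean pair difference is past 1, with MATR3 siRNA (red) left of control siRNA (blue) and 1 symbol per replicate number. The groups are apart only in the junction probe sets of SNHG15, GAS5 and ZFAS1.

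The splicing index, the log2 signal of a probe set minus the mean of the tested probe sets with the same annotation on the same array, asks whether part of a locus moved apart from the rest. In limma 0 of 382217 probe sets passed with no block (0%), and 5.07% had an unadjusted p under 0.05, of which 12 were among the 307 of the hosts. Without MATR3 siRNA replicate 1, 296 of all probe sets passed (0.0774%) and 0 of the 307, the lowest adjusted p of a host probe set being 0.0563 in limma. That was the GAS5 exon probe set PSR01054832.hg.1, with an index change of -0.94 ± 1.62 over all samples. This fit had no block, so the left-out sample also shifts the balance of the array sets between the groups. With all samples, the replicate block gave 18 host probe sets with an unadjusted p under 0.05 beside 8.07% of all, and the array set block 23 beside 9.3%. No host probe set passed with the replicate block or the array set as a block either, at background shares of 0.000262% and 0%. The highest index change per host was 4.19 ± 3.57 for the SNHG1 probe set above, then 1.00 ± 0.40 and 0.98 ± 0.62 for the SNHG15 and GAS5 junctions above and 0.81 ± 0.85 for the ZFAS1 junction above. In the other hosts it ran from 0.54 (SNHG6) to 0.74 (SNHG12).

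The lowest index change was -1.75 ± 1.76 in SNHG6 and -1.13 ± 1.05 in SNHG12, in the probe sets above. In SNHG5 the junction probe set JUC06011456.hg.1 had 17.53, 16.73 and 16.49 with MATR3 siRNA, against 17.53, 17.58 and 17.66 with control siRNA, equal on the replicate 1 arrays and lower after MATR3 siRNA on the others (index change -0.88 ± 0.71). Its neighbour by identifier, JUC06011457.hg.1, had the highest index change of SNHG5, with 13.07, 14.66 and 14.43 with MATR3 siRNA, against 13.27, 13.49 and 13.07 with control siRNA (0.57 ± 0.77). Both rest on replicates 2 and 3.

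Small RNAs of these hosts with clusters of their own moved less evenly than the hosts. Of 8 such clusters 5 lay above 0 and 3 below, none kept 1 sign in all pairs, and none passed in limma with no block (0%), with the replicate block or under the array set block. With array weights, which called 9.45% of all clusters, 1 of the 8 passed, SNORD12C (adjusted p = 0.0233 in limma). SNORA73B, hosted by SNHG3, had 16.06, 15.78 and 15.30 with MATR3 siRNA, against 16.28, 15.25 and 14.70 with control siRNA (0.30 ± 0.46). SNORA24, hosted by SNHG8, had 15.63, 15.45 and 15.65 with MATR3 siRNA, against 15.85, 15.23 and 14.90 with control siRNA (0.25 ± 0.49). In both, pair 1 lay below 0 and pairs 2 and 3 above.

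SNORD99, in the locus of SNHG12, was the lowest of the 8, with 12.87, 11.94 and 11.48 with MATR3 siRNA, against 14.02, 11.75 and 11.91 with control siRNA (-0.46 ± 0.67). The 3 snoRNAs of ZFAS1 did not share a sign, at -0.30 ± 0.51 for SNORD12, -0.13 ± 0.35 for SNORD12B and 0.33 ± 0.42 for SNORD12C. SNORD75 and SNORD78 of GAS5 were at 0.12 ± 0.35 and 0.14 ± 0.59.

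Other noncoding hosts lay near the 10. Of 13 measured, 9 were above 0 and 4 below, with a median of 0.14. Of the 13, 9 had a mean above the brightest background probe set at 6.93. SNHG9, SNHG14 and MEG8, among the 4 below 0, did not, so their differences are not exact. Under the array set block 1 of the 13 rose and 0 fell, beside the 3.4% called over all clusters with a symbol. The riser was SNHG20, with 10.24, 9.60 and 9.66 with MATR3 siRNA, against 9.90, 9.36 and 9.25 with control siRNA (0.33 ± 0.09, adjusted p = 0.0422 in limma), on a cluster also annotated with SEC14L1. With 1 sample left out it passed in 0 of 6 fits of this model (adjusted p from 0.077 to 0.189). Of these fits only that without MATR3 siRNA replicate 2 called any cluster at all (204). The other left-out fits therefore say nothing about a single gene, here and in the lists that follow. SNHG16, the host of SNORD1 members, had 0.12 ± 0.06 and was not called. The lists that follow were read in the same fit.

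Protein-coding hosts, most of them genes of ribosomal proteins and translation factors, had a median of 0.04 over 45 measured, with 34 above 0, 1 that rose and 0 that fell. The riser was RPL30, a ribosomal protein gene that hosts SNORA72, at 0.27 ± 0.02 (adjusted p = 0.0477 in the array set model of limma), and it passed in 0 of 6 fits with 1 sample left out (0.0916 to 0.209). The proteins that assemble or form the snoRNA particles had a median of 0.04 over 17, with 0 that rose and 0 that fell. The genes named here are NOP58, a core C/D protein, at -0.09 ± 0.10, and NOP10, a core H/ACA protein, at 0.01 ± 0.13. NOP56 and DKC1 stand in both lists.

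Factors of nonsense-mediated decay, which acts on spliced host RNA, had a median of 0.09 over 15 measured, with 12 above 0, 1 that rose and 0 that fell. The riser was SMG9, a subunit of the SMG1 kinase complex, with 9.26, 8.85 and 8.93 with MATR3 siRNA, against 8.95, 8.62 and 8.52 with control siRNA (0.32 ± 0.09, adjusted p = 0.0459 in the array set model of limma), and it passed in 0 of 6 fits with 1 sample left out (0.0804 to 0.202). With no block none of the clusters of these lists passed in limma (adjusted p of 1 over all clusters tested), and the replicate block called 0 in each list.

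**Figure D5:**
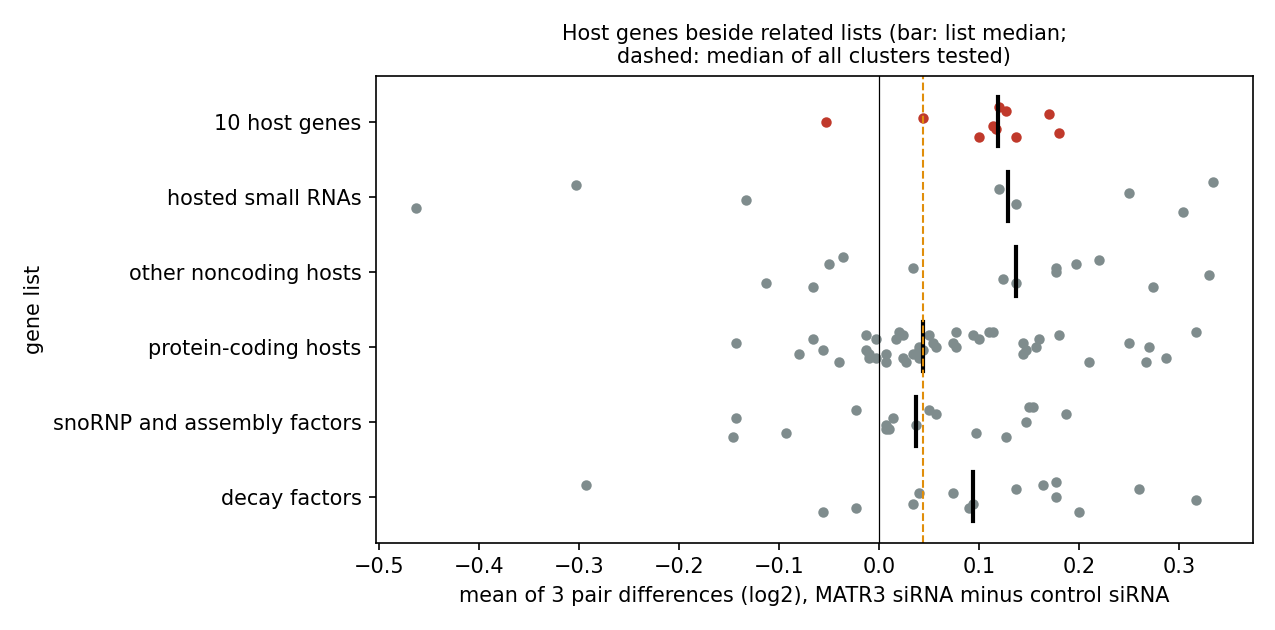
Mean of 3 pair differences (log2, MATR3 siRNA minus control siRNA) of the 10 host gene clusters (red) and of 5 related lists (grey, 1 point per measured cluster), with bars at the list medians and a dashed line at the median of all clusters tested. The 10 hosts lie between -0.05 and 0.18, inside the range of the other noncoding hosts. The low end of that range, MEG8 and SNHG9, lies under the brightest background probe set.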

How the data were processed

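Each of the 6 arrays (3 samples per siRNA, 12 records) was deposited at gene and exon level as log2 signals, made by the authors with Affymetrix Expression Console and RMA per the submitters' processing notes; versions, order of steps and genome build are not given in the sources used here. Nothing was rescaled; 6 arrays set the precision. Symbols came from GEO's platform annotation, updated through gene identifiers or older symbols (ZNFX1-AS1 to ZFAS1). Of 67528 clusters, 33782 with a mean at or above the median of all were tested, 16259 of them with a symbol, and likewise 456623 of 913055 probe sets. R 4.3.3 with limma 3.58.1 ran two-sided tests with Benjamini-Hochberg adjustment at 0.05, the main fit with no block, after tests on simulated data. The splicing index needed at least 5 tested probe sets per annotation. Same-numbered samples deviated together (r = 0.696, 0.327 and 0.527), so changes are means of pair differences. Figures used Python 3.11.15 and matplotlib 3.10.9.

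The members and lists were chosen with earlier results of these data known. Each gene of a list was read on the brightest cluster with its symbol. All 10 hosts are named, with the probe sets of the highest and lowest index change and, per list, called genes or the 2 of highest mean signal, a choice of names only. Other named probe sets (mean past 1) and snoRNAs were chosen after their values were seen. Normalization, filter, block, array weights and left-out samples were varied.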

Additional observations from a re-analysis of the deposited data

How the results depend on the processing

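In limma the hosts called stayed at 0 of 10 clusters, and at 0 of their probe sets and of their index values, under every alternative run, also where the index called 296 of all probe sets (without MATR3 siRNA replicate 1). The count over all clusters was 0 with no block and with the replicate block (replicate number as a block, no filter and 75th percentile filter included), 1 under the array set block, 1 after quantile normalization, 9 (replicate block) and 552 (array set block) over clusters with a symbol, and 3194 with array weights. Leaving out 1 sample gave 0 with no block. Under the array set block over clusters with a symbol it gave 204 without MATR3 siRNA replicate 2 and 0 in the other 5 fits, and SNHG20, RPL30 and SMG9 passed in none of the 6. The host median, 0.12, was 0.042 after median centring and ran from -0.10 to 0.31 when 1 sample was left out. Under the array set block this range was 0.09 to 0.14. Differences of single hosts changed sign for SNHG1 after median centring (-0.033) and for SNHG12 with array weights (0.014). When 1 sample was left out they ran from -0.11 to 0.20 for SNHG1, -0.088 to 0.33 for SNHG3, -0.042 to 0.26 for SNHG7, -0.15 to 0.38 for SNHG8, -0.33 to 0.24 for SNHG12, -0.09 to 0.33 for SNHG15, -0.13 to 0.40 for GAS5 and -0.23 to 0.46 for ZFAS1. With no block a left-out sample also shifts the balance of the 2 array sets between groups. SNHG5 and SNHG6 kept their sign in all 22 alternatives.

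The replicate block changed no call of a host. SNHG7 lies near background, and SNHG3 shares its cluster with RCC1.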

Other observations

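GAS5-AS1, annotated as antisense to GAS5 and no member of the 10, had signals (log2) of 7.57, 7.28 and 7.32 with MATR3 siRNA, against 7.74, 7.35 and 7.39 with control siRNA. All 3 pairs lay below 0 (mean -0.10 ± 0.06 SD, n = 3 pairs), while all 3 pairs of GAS5 lay above. The share of all clusters tested with 3 pairs below 0 was 13.5%, and the difference between the 2 genes was not tested.

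SNHG32 had the largest change among the other noncoding hosts after SNHG20, with 9.78, 9.20 and 9.27 with MATR3 siRNA, against 9.46, 8.99 and 8.98 with control siRNA (0.27 ± 0.06). Under the array set block, limma gave this cluster an adjusted p of 0.0512. The cluster is the brightest with this symbol, and its identifier, TC6_dbb_hap3000071.hg.1, names an alternate haplotype. Any other cluster of SNHG32 was not read here. SNHG32 was chosen after its values were seen.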
